A study of Mus musculus with 14 samples.

Results

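The miR-297, miR-466, miR-467 and miR-669 families are microRNAs (miRNAs) of the mouse whose hairpins lie mostly within the gene Sfmbt2. Their members were taken by name, as every miRNA of the array called mmu-miR-297, mmu-miR-466, mmu-miR-467 or mmu-miR-669 followed by a letter, a hyphen or nothing, which gave 61 of the 1247 miRNAs. The miR-466 and miR-669 families have 23 members each, the miR-467 family has 12 and the miR-297 family has 3. By name 26 are 3p strands, 25 are 5p strands and 10 carry no strand. The 14 arrays measured small RNA of male C57BL/6 mice, 6 to 8 weeks old, taken 12 h after 0 or 8 Gy of gamma radiation. Each array held RNA pooled from 3 mice, and each combination of tissue, pretreatment and dose had 1 array. Bone marrow came from mice given phosphate-buffered saline (PBS) into the peritoneum (i.p.), PBS into the stomach (i.g.), amifostine i.p. (10 mg/kg, 0.5 h before irradiation), CBLB502 i.p. (0.2 mg/kg, 0.5 h before) or nilestriol i.g. (150 mg/kg, 48 h before), each at both doses. Hypothalamus came from mice given PBS i.p. or amifostine, at both doses. Amifostine is a thiol prodrug used to limit radiation damage, CBLB502 is a flagellin-derived agonist of Toll-like receptor 5, and nilestriol is a long-acting estrogen. Because a pool has no replicate, every error below comes from the residual spread of an additive fit, and fewer cells of a type and less RNA per cell cannot be told apart.

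A miRNA is cut from one arm of a hairpin, the 5p or the 3p arm, and pairs with target transcripts mainly through its seed, bases 2 to 8. Sfmbt2 encodes a polycomb-type protein, is expressed from the paternal copy in early development and placenta, and carries in one of its introns a large miRNA cluster that expanded in rodents. Many members differ by a base or a short shift, and many consist largely of alternating C and A (CA repeat) or G and U (GU repeat). The array header names mm9 as its build, but the chromosome placements it gives for 1014 of 1015 miRNAs with a RefSeq GRCm38.p6 position start within 100 bases of it, so positions here are given as GRCm38. On that build 54 of the 61 members have a placement within the bounds of Sfmbt2 (chr2:10370440-10595253), in a stretch of 129.3 kb, and 51 have placements nowhere else. miR-466b-3p alone has 24 placements and miR-467a-3p has 20, so that 1 probe reads the product of many hairpins. The 7 members placed elsewhere are miR-466i-3p and miR-466i-5p on chromosome 13, within the bounds of Cdk13, miR-466q on chromosome 3 within Tnik, miR-467f on chromosome 11 within Fxr2, miR-467g on chromosome 5 within Grk4, miR-466k on chromosome 3 within the long noncoding RNA gene Gm31419, and miR-466j on chromosome 10 in no listed gene. miR-669n was placed both in the cluster and on chromosome 3, within Slc30a7.

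RefSeq mature sequences were found for 7 of the 61 members. The 4 that the results turn on are shown 5′ to 3′ with the seed in capitals, to show how the CA or GU repeat runs through and beyond it. No seed is shared among the 7.
mmu-miR-466i-3p: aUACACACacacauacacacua
mmu-miR-466q: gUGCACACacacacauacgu
mmu-miR-467f: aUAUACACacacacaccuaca
mmu-miR-669n: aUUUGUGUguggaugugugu
These lie at chr13:17747552-17747573 on the plus strand, chr3:28419988-28420007 on the plus strand, chr11:69635419-69635439 on the minus strand and chr3:115979905-115979924 on the plus strand.

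What the array reads is the stretch its DNA probes are complementary to, mostly the 3′ part of the miRNA. The longest probe is shown for each of the 15 members that could be tested in bone marrow, with its longest run of alternating G and T or A and C in capitals, because the members are grouped by these runs below. A probe rich in GT reads a CA-repeat miRNA, and one rich in AC reads a GU-repeat miRNA. The first 8 read a CA run of 9 or more bases and the next 3 a CA run of 6 to 8. miR-669n and miR-466i-5p read a GU repeat, and the last 2 read neither.
mmu-miR-466q: acgtaTGTGTGTGTGTG
mmu-miR-467f: tgtagGTGTGTGTGTGT
mmu-miR-669c-3p: tttactTGTGTGTGTGTG
mmu-miR-669p-3p: atacGTGTGTGTGTGTatg
mmu-miR-466h-3p: GTGTGTGTGTGcgt
mmu-miR-466f-3p: gtgtgtaTGTGTGTGTG
mmu-miR-466i-3p: tagtgtgtaTGTGTGTGTG
mmu-miR-669f-3p: atacGTGTGTGTGTatgt
mmu-miR-466g: TGTGTGTGcatgtgtc
mmu-miR-467a-3p: tgtagGTGTGTGTatgtata
mmu-miR-466b-3p: tcttaTGTGTGcgtgta
mmu-miR-669n: acacacatcCACACACAa
mmu-miR-466i-5p: CACACACACACACACA
mmu-miR-467a-5p: cgcatatACAtgcaggca
mmu-miR-467b-5p: catatACAtgcaggcact

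Members are called CA-repeat below where the probed stretch holds ACACAC (24 members), GU-repeat where it holds GTGTGT (14 members) and neither otherwise (23 members), read on the miRNA strand. By this rule miR-466b-3p, whose CA run of 6 does not hold ACACAC, counts under neither. Among the 1010 other miRNAs of the array with a RefSeq mature sequence, 19 hold ACACAC or GUGUGU. The probes of the long-repeat members share much of their letters. The longest stretch in common with the miR-466h-3p probe was 11 bases for miR-466q, miR-467f, miR-669c-3p and miR-669p-3p, 10 for miR-466f-3p, miR-466i-3p and miR-669f-3p, 9 for miR-466g and miR-466b-3p, and 8 for miR-467a-3p. It was 3 bases for miR-467a-5p and 1 base for miR-466i-5p and miR-669n. Some probes also carry other names of the families, such as that of miR-669f-3p for miR-669a-3p and miR-669o-3p, and that of miR-669n for miR-669c-5p. How far 1 RNA binds the probe of another member was not tested.

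The arrays detected 332 to 403 miRNAs in bone marrow and 478 to 582 in hypothalamus, with no saturated spot. Most tissue markers fitted the labels: miR-124-3p, miR-9-5p, miR-9-3p, miR-138-5p and miR-219-2-3p, enriched in brain, were detected on 4 of 4 hypothalamus arrays and on none of 10 bone marrow arrays. The brain marker miR-128-3p was detected on all arrays, at 57.8 to 129 intensity units in marrow and 6110 to 7820 in hypothalamus. miR-223-3p of myeloid cells differed by -9.52 on the log2 scale, hypothalamus minus bone marrow. It was detected on 4 hypothalamus arrays, as were the marrow markers miR-142-3p, miR-451a (773 to 1070 units there) and miR-150-5p (205 to 239, against 141 to 390 in marrow). miR-142-5p and miR-144-3p were detected on no hypothalamus array. The part of blood in hypothalamus was not tested. Among markers of tissues that could be carried along, miR-204-5p of choroid plexus was detected on all 4 hypothalamus arrays and on no marrow array. For muscle, 2 or 3 of the 3 markers were detected on every array. Of the 3 pituitary markers miR-375-3p was detected on 4 hypothalamus arrays and no marrow array. The other pituitary markers were also seen in marrow, miR-7a-5p on all arrays of both tissues and miR-200c-3p on 10 marrow and 2 hypothalamus arrays. Levels below are log2 of the background-subtracted probe signal divided by an upper quartile of its array, with low signals set to a floor. That quartile is taken over the miRNAs that every array of a fit detected, so it depends on the fit. Levels of different miRNAs are not set against each other because probes differ in brightness.

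About 2 in 5 members gave a signal, and the share differed with the CA run of the probed stretch. The run length of 9 used here was chosen with these values known, so the split is a description. Of the 61 members, 26 were detected on at least 1 array, 10 on all 14, and 35 (57.4%) on none, against 48.5% on none among the other 1186 miRNAs. The 10 on all arrays were miR-466f-3p, miR-466h-3p, miR-466i-3p, miR-466i-5p, miR-466q, miR-467f, miR-669c-3p, miR-669f-3p, miR-669n and miR-669p-3p. Of the 10 members with a CA run of 9 or more bases, 8 were detected on all 14 arrays, and the exceptions, miR-467g and miR-669a-3-3p, on none. The probes of these exceptions had a GC content of 25.7% and 30.5%, against 37.1% to 59.3% for the 8. The part of GC content in detection was not tested. Of the 19 with a run of 6 to 8, none was detected on all arrays and 9 on at least 1. Of the 32 with a shorter run, 2 were detected on all, both GU-repeat members.

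Detection also differed by class, family and tissue. A signal on at least 1 array was seen for 15 of 24 CA-repeat members (62.5%), 4 of 14 GU-repeat members (28.6%) and 7 of 23 with neither (30.4%). By strand it was seen for 14 of 26 3p strands, 8 of 25 5p strands and 4 of 10 without a strand name, and by family for 10 of 23 miR-466, 7 of 12 miR-467, 8 of 23 miR-669 and 1 of 3 miR-297 members. In hypothalamus 25 members were detected on at least 1 array (41.0%, against 48.0% of the other miRNAs), and in bone marrow 21 (34.4%, against 35.8%). The 5 seen in hypothalamus alone were miR-297a-3p, miR-466d-3p, miR-466m-5p, miR-467b-3p and miR-669b-5p, and of these only miR-297a-3p was detected on all 4 hypothalamus arrays. Its signal there, 2.4 to 5.8 intensity units, was nonetheless below the floor on every array, so no fold between the tissues is given.

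**Figure D1:**
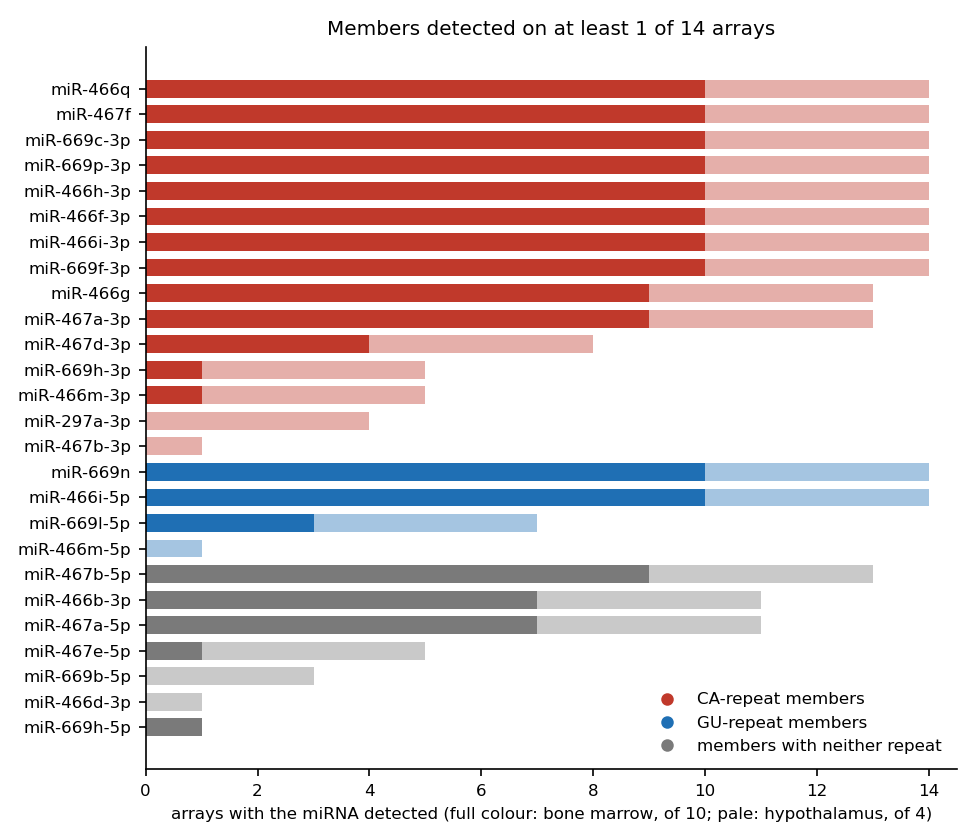
Number of arrays, of 14, on which each of the 26 detected members was detected, with bone marrow in full colour (of 10) and hypothalamus in pale colour (of 4), coloured by repeat class. The bars of the 8 long CA-repeat members and of the GU-repeat members miR-669n and miR-466i-5p reach 14, and the members with neither repeat reach at most 13.

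In bone marrow the long CA-repeat members moved together from array to array. The level of miR-466h-3p was -1.23 at 0 Gy and -2.42 at 8 Gy with PBS i.p., and -1.08 and -1.88 with PBS i.g. It was -0.40 and -0.71 with amifostine, -0.44 and -0.56 with CBLB502, and -1.24 and -1.18 with nilestriol. The irradiated PBS arrays were thus lowest, the amifostine and CBLB502 arrays highest at both doses, and both nilestriol arrays near the unirradiated PBS arrays. The log2 ratio of miR-466f-3p and of miR-467f to miR-466h-3p had an SD of 0.04 over the 10 arrays, that of miR-466i-3p 0.06, of miR-669p-3p 0.08, of miR-466q and miR-669c-3p 0.09, and of miR-466g 0.14. Over the 371 miRNAs tested in bone marrow the median of this SD was 0.74, and these 7 members ranked 1 to 7. The next was miR-574-3p, no member but also a CA-repeat miRNA, at 0.18. The members share scaling, arrays and probe letters, so these ratios are a description.

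Other members had patterns of their own. miR-669f-3p, with a run of 10, had a ratio SD of 0.35, at rank 14. The ratio SD was 0.90 for miR-467a-3p and 0.91 for miR-467b-5p. The GU-repeat members stood far from the CA-repeat ones, at 0.78 for miR-466i-5p and 1.03 for miR-669n. The level of miR-669n was -2.05 at 0 Gy and -1.56 at 8 Gy with PBS i.p., -2.78 and -1.92 with PBS i.g., -2.97 and -2.37 with amifostine, -2.76 and -1.93 with CBLB502, and -2.02 and -2.08 with nilestriol. It was higher at 8 Gy in 4 of the 5 pairs. The level of miR-466i-5p was 2.51 and 2.60 with PBS i.p., 1.98 and 2.56 with PBS i.g., 2.09 and 2.44 with amifostine, 2.30 and 3.26 with CBLB502, and 2.77 and 2.42 with nilestriol, and it was likewise higher at 8 Gy in every pair but nilestriol.

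**Figure D2:**
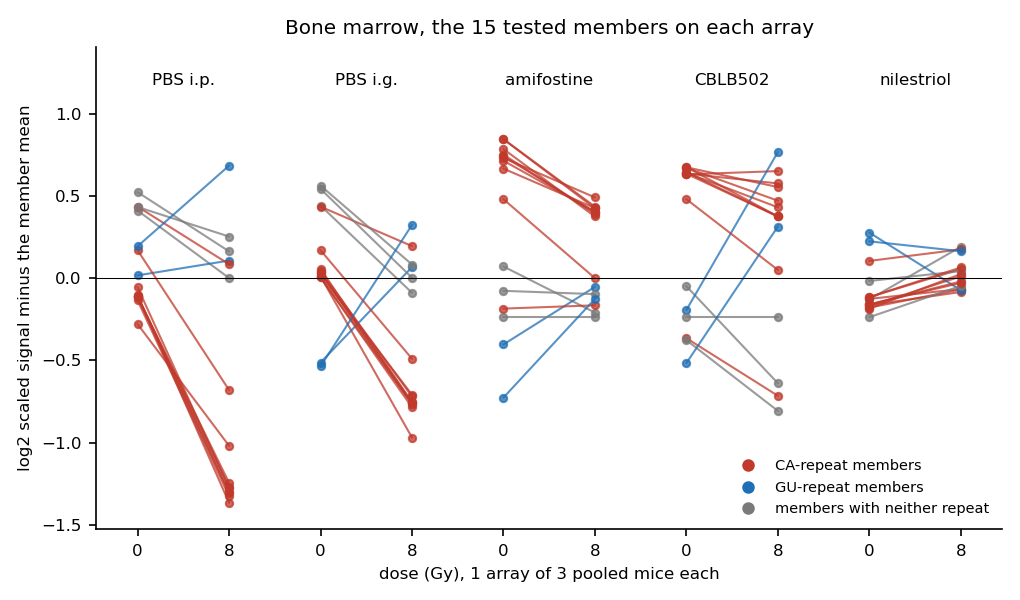
Log2 scaled signal of the 15 tested members in bone marrow minus each member's mean over the 10 arrays, at 0 and 8 Gy in the 5 pretreatment arms, 1 array of 3 pooled mice per point, lines joining the same member. The CA-repeat lines (red) fall in both PBS arms and, but for those of miR-467a-3p and miR-669f-3p, lie close together and highest in the amifostine and CBLB502 arms, while the GU-repeat lines (blue) rise with dose in 4 of 5 arms.

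Over all 5 arms, 8 against 0 Gy left no member past the threshold in bone marrow, although 13 of 15 had a lower estimate. By limma with Benjamini-Hochberg adjustment, 0 of 15 tested members were called at an adjusted p of 0.05, against 47 of 371 miRNAs (12.7%; 9.16% higher and 3.5% lower), and 2 members had an unadjusted p under 0.05, against 134 of all. The other 46 members were detected on fewer than 50% of the arrays and were not tested. The median difference of the tested members was -0.43, against 0.09 over all miRNAs tested, of which 44.7% had a lower estimate. miR-466q had the lowest estimate of those detected on all arrays (-0.51 ± 0.21 SE, adjusted p = 0.138), next to miR-669p-3p (-0.50 ± 0.21, adjusted p = 0.141). miR-669n had the highest (0.54 ± 0.16, adjusted p = 0.0740), before miR-466i-5p (0.32 ± 0.20, adjusted p = 0.273). By class the median was -0.47 for the CA-repeat members, 10 of 10 with a lower estimate, 0.43 for the 2 GU-repeat members and -0.24 for the 3 with neither. The CA-repeat median lay below 0 under all 19 alternatives run (-0.69 to -0.06).

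The estimates spread widely over the arms. The median of 8 minus 0 Gy over the 10 CA-repeat members was -1.17 with PBS i.p. (range -1.26 to -0.34), -0.78 with PBS i.g. (-0.98 to -0.24), -0.35 with amifostine (-0.48 to 0.03), -0.23 with CBLB502 (-0.43 to 0.02) and 0.13 with nilestriol (0.06 to 0.22). All 10 were therefore lower after irradiation in both PBS arms and higher in the nilestriol arm, with 1 pair of arrays for each arm and no test of the difference between arms. Without the nilestriol arm 4 of 15 members passed the threshold (26.7%), close to the share of all miRNAs that then passed (24.3%). The amifostine and nilestriol arrays share a slide that holds no PBS array, and the 3 other arms share another. The summed signal of the 6 marrow markers, among them the erythroid miR-451a and the myeloid miR-223-3p, was 35700 to 54300 intensity units on the 0 Gy arrays and 67200 to 105000 on the 8 Gy arrays. Its part in the members' values was not tested.

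Within the PBS arms alone the estimates were larger, and no member was called in the main fit. limma called 0 of 16 members and 0 of 362 miRNAs (0%), while 12 members and 107 miRNAs had an unadjusted p under 0.05. The median was -0.80 over the tested members and 0.04 over all miRNAs. The log2 difference was -0.99 ± 0.18 for miR-669p-3p (adjusted p = 0.158), -0.98 ± 0.17 for miR-466h-3p (adjusted p = 0.155) and -1.0 ± 0.20 for miR-466q (adjusted p = 0.163). miR-669n (0.69 ± 0.16, adjusted p = 0.169) and miR-466i-5p (0.35 ± 0.20, adjusted p = 0.365) had higher estimates. This fit of 4 arrays has 1 residual degree of freedom. When miRNAs at the floor on all 4 arrays were left out, an alternative chosen after the data were seen, 10 of 16 members (62.5%) and 103 of 349 miRNAs (29.5%) passed. Such miRNAs have no residual spread, and limma borrows error across all miRNAs. The count of 0 in the main fit thus depends on keeping them.

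**Figure D3:**
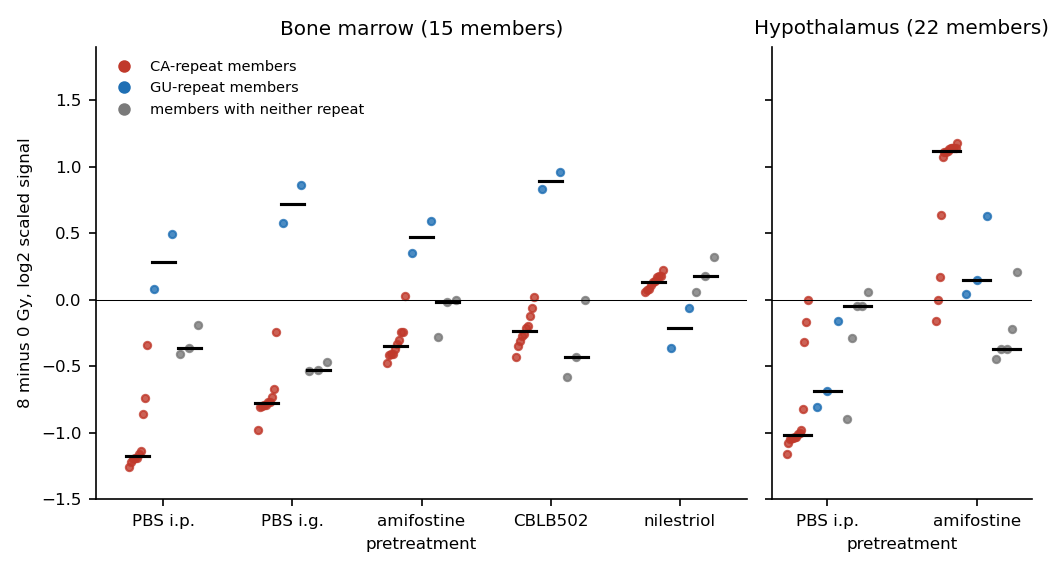
Difference of 8 minus 0 Gy in log2 scaled signal for each tested member (points) in each pretreatment arm of bone marrow (15 members) and hypothalamus (22 members), with black bars at the class medians; each arm is 1 pair of arrays. The CA-repeat median goes from -1.17 with PBS i.p. to 0.13 with nilestriol in bone marrow, and is -1.02 with PBS i.p. and 1.11 with amifostine in hypothalamus.

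CBLB502 gave the only calls of members in bone marrow: 4 CA-repeat members rose and 2 members of the miR-467 family fell. Of 15 tested members 4 were called higher and 2 lower, against 20 (5.39%) and 25 (6.74%) of all 371 miRNAs. 13 members and 139 miRNAs had an unadjusted p under 0.05. The members that rose against PBS of both routes were miR-466g (1.20 ± 0.25), miR-466h-3p (1.15 ± 0.28), miR-466f-3p (1.12 ± 0.28) and miR-467f (1.10 ± 0.28), each with adjusted p = 0.0445. The estimates of miR-466i-3p, miR-466q, miR-669c-3p and miR-669p-3p, 1.04 to 1.07, missed the threshold narrowly, with adjusted p-values of 0.0503 to 0.0512. The drug array was above the mean of the PBS arrays at each dose: miR-466h-3p by 0.72 at 0 Gy and 1.59 at 8 Gy, and miR-466g by 0.76 and 1.64. The level of miR-466g was -3.66 and -3.64 with CBLB502, against -4.57 and -4.28 on the PBS arrays at 0 Gy and -5.31, the floor, and -5.26 at 8 Gy.

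The members that fell with CBLB502 were miR-467b-5p (-0.92 ± 0.15) and miR-467a-3p (-0.83 ± 0.14), each with adjusted p = 0.0277. The level of miR-467b-5p on the PBS arrays was -3.87 and -3.83 at 0 Gy and -4.23 and -4.31 at 8 Gy, and with CBLB502 it was -4.77 and -5.20. That of miR-467a-3p was -3.74 on both PBS arrays at 0 Gy and -4.09 and -3.98 at 8 Gy, and with CBLB502 it was -4.54 and -4.89. Both drug arrays lay below all 4 PBS arrays for both members. These are dim probes, miR-467b-5p reading 7.5 to 22.5 intensity units in bone marrow, and each was detected on 9 of 10 marrow arrays. The related miR-467a-5p (-0.54 ± 0.16, adjusted p = 0.0574) and miR-466b-3p (-0.54 ± 0.19, adjusted p = 0.0899) had lower estimates and were not called. The GU-repeat members were not called either, miR-466i-5p with 0.37 ± 0.26 (adjusted p = 0.327) and miR-669n with -0.27 ± 0.26 (adjusted p = 0.456).

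The CBLB502 calls rested on few arrays. No member was called when either unirradiated PBS array, the irradiated array of PBS i.p. or the irradiated CBLB502 array was left out, and no other miRNA was called in these fits either. The number of members called was 2 when the unirradiated CBLB502 array was left out, with 5.75% of all miRNAs called. It was 3 when either amifostine array was left out (11.3% of all miRNAs at 0 Gy and 8.7% at 8 Gy), and 12 or 13 when the 0 or the 8 Gy nilestriol array was (21.5% and 24.2%). miR-467b-5p and miR-467a-3p turned to 1.12 and 1.20 when the scanner software's own totals were used. The CA-repeat median lay above 0 under all 24 alternatives (0.47 to 1.24), and the calls moved from 4 higher and 2 lower to 1 higher and 4 lower when scaling used all miRNAs, when 3.5% of all miRNAs were called higher and 18.9% lower. Against PBS i.p. alone no miRNA was called, and among the 6 marrow arrays of the slide that holds PBS and CBLB502, 12 of 15 members and 29.8% of all miRNAs were.

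Amifostine and nilestriol were set against the same 4 PBS arrays as CBLB502, and no member was called for either. With amifostine 0 of 15 members and 0 of 371 miRNAs (0%) passed by limma, with 11 members and 76 miRNAs at an unadjusted p under 0.05. The median was 1.06, against 0.05 over all miRNAs, and 9 of the 10 CA-repeat members had higher estimates. The highest were miR-669c-3p (1.21 ± 0.28) and miR-466q (1.20 ± 0.29), both with adjusted p = 0.133. miR-467a-3p, the remaining CA-repeat member, had -0.46 ± 0.14 (adjusted p = 0.149). Among the GU-repeat members miR-669n had -0.60 ± 0.26 (adjusted p = 0.266) and miR-466i-5p -0.15 ± 0.26 (adjusted p = 0.789). By dose the CA-repeat median was 0.78 at 0 Gy and 1.41 at 8 Gy.

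With nilestriol 0 of 15 members and 0 of 371 miRNAs (0%) passed, with 1 member and 95 miRNAs at an unadjusted p under 0.05. The median was 0.39, against 0.02 over all. miR-669c-3p (0.53 ± 0.28, adjusted p = 0.229) and miR-466q (0.52 ± 0.29, adjusted p = 0.237) had the highest estimates. miR-669n (0.02 ± 0.26, adjusted p = 0.966) and miR-669f-3p (0.12 ± 0.20, adjusted p = 0.689) had the lowest of those detected on all arrays. The CA-repeat median was -0.13 at 0 Gy and 0.97 at 8 Gy, so the arms stood apart at 8 Gy, where the PBS arrays were low. The difference between the routes of PBS, i.g. minus i.p., was 0.14 at 0 Gy and 0.53 at 8 Gy for the same median. The effect of either drug cannot be told apart from that of the slide both were on.

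**Figure D4:**
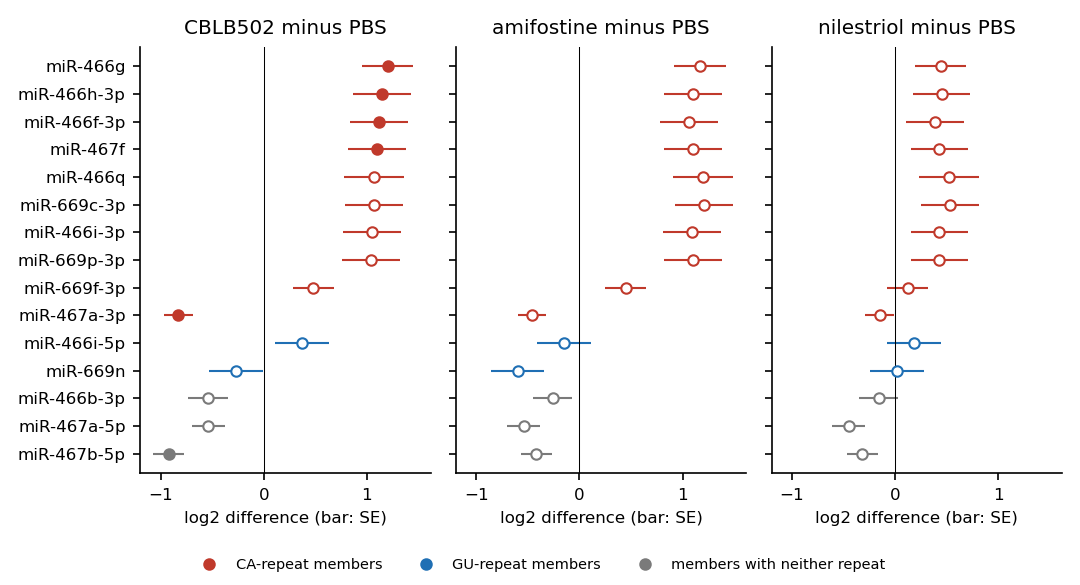
Log2 difference of each of the 15 tested members in bone marrow between a drug and PBS of both routes, over both doses, with bars of 1 SE from the limma fit and filled points for an adjusted p of at most 0.05. Filled points appear with CBLB502 alone, 4 near 1.1 and 2 near -0.9, and the 3 panels share the 4 PBS arrays.

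In hypothalamus no member was called for irradiation or for amifostine, and the long CA-repeat members had opposite signs in the 2 arms. For 8 against 0 Gy limma called 0 of 22 members and 0 of 544 miRNAs (0%), with 0 members and 0 miRNAs at an unadjusted p under 0.05. With 4 arrays this fit has 1 residual degree of freedom, as has the amifostine fit below, so the lack of calls says little. The level of miR-466h-3p was 1.04 at 0 Gy and 0.01 at 8 Gy with PBS, and -0.34 and 0.79 with amifostine. That of miR-466q was 0.30 and -0.71 with PBS, and -1.19 and -0.06 with amifostine. That of miR-669c-3p was -0.39 and -1.44 with PBS, and -1.90 and -0.72 with amifostine. Each was highest on the unirradiated PBS array and second on the irradiated amifostine array, and the median change with dose over the 14 CA-repeat members was -1.02 with PBS and 1.11 with amifostine. The estimates over both arms were accordingly close to 0, at 0.06 ± 0.77 for miR-466q and 0.06 ± 0.80 for miR-669c-3p, while miR-467e-5p had -0.37 ± 0.18 and miR-669l-5p -0.27 ± 0.34 (adjusted p = 1 for each). As in marrow these members kept step: the ratio to miR-466h-3p had an SD of 0.02 to 0.07 over the 4 arrays for miR-466f-3p, miR-466g, miR-466i-3p, miR-466m-3p, miR-466q, miR-467f, miR-669c-3p, miR-669h-3p and miR-669p-3p, against a median of 0.71 over all miRNAs. Non-members lay in that range too, with miR-5121 at 0.05 and miR-574-3p and miR-3096a-5p at 0.07, and the long CA-repeat member miR-669f-3p was at 0.22.

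Several members varied less over the 4 hypothalamus arrays, with ranges of 0.27 for miR-466b-3p, 0.32 for miR-669n, 0.35 for miR-467a-3p and 0.45 for miR-467b-5p, against 1.39 for miR-466h-3p. The level of miR-467b-5p was -2.21 and -2.15 with PBS and -2.22 and -2.59 with amifostine, and that of miR-669n was -1.62 and -1.78 with PBS and -1.94 and -1.90 with amifostine. The GU-repeat member miR-466i-5p, at 2.35 and 1.54 with PBS and 1.57 and 2.20 with amifostine, followed the CA-repeat members there. For amifostine against PBS, 0 of 22 members and 0 of 544 miRNAs (0%) passed by limma, with 0 members and 1 miRNA at an unadjusted p under 0.05. The estimate was -0.42 ± 0.77 for miR-466q, -0.40 ± 0.78 for miR-466i-3p and -0.06 ± 0.53 for miR-466i-5p (adjusted p = 1 for each), and miR-297a-3p was at the floor throughout. The amifostine arrays have a slide of their own, so that the effect of the slide cannot be told apart from that of the drug. The number of miRNAs detected was 528 and 478 with PBS and 524 and 582 with amifostine, and the summed signal of the 3 muscle markers was 98.6 and 103 with PBS and 250 and 127 with amifostine, at 0 and 8 Gy in that order. That of the 3 pituitary markers was 5130 and 3540 with PBS and 3890 and 4140 with amifostine. It was mostly miR-7a-5p (3530 to 5110 units), which was also detected on all marrow arrays, while miR-375-3p read 8.99 to 17.7. The sum is therefore no measure of pituitary tissue alone. The part of these tissues in the members' values was not tested.

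Between the tissues, 8 members were called higher in hypothalamus and 1 lower, over the 4 conditions that both tissues have. Some of the 8 met the detection filter through their hypothalamus arrays, as given below. Of 21 tested members 8 were called higher and 1 lower by limma, against 213 (40.2%) and 84 (15.8%) of 530 miRNAs, so the members' shares are read against a background in which 56% of all miRNAs differed. The median of the members was 1.08, against 0.38 over all miRNAs, and 12 members and 332 miRNAs had an unadjusted p under 0.05. miR-467b-5p was higher by 1.60 ± 0.18 (adjusted p = 0.00149). Levels between the tissues are scaled over the matched arrays of both, so they differ from those given above for the same arrays. The level of miR-467b-5p in bone marrow was -4.05 and -4.29 with PBS and -4.64 and -4.52 with amifostine. In hypothalamus it was -2.87 and -2.50 with PBS and -2.62 and -3.10 with amifostine, so the tissues did not overlap. miR-466g was higher by 1.67 ± 0.43 (adjusted p = 0.0274), with differences of 0.32 to 2.57 over the 4 conditions. miR-466i-5p was lower, at -0.87 ± 0.16 (adjusted p = 0.00910), with levels of 1.93 to 2.54 in bone marrow and 1.17 to 1.69 in hypothalamus.

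These 3 kept their direction under all alternatives run, 17 for miR-467b-5p and miR-466i-5p and 16 for miR-466g, and passed the threshold in 12, 15 and 6 of them. The other 6 that passed turned sign under at least 1 other background, scaling or GC setting. miR-467e-5p (1.11 ± 0.15, adjusted p = 0.00257 by limma) was detected on none of the 4 bone marrow arrays and met the filter through hypothalamus alone. Its call is therefore no support for a difference. The difference was 2.16-fold under the main setting, with each marrow array taken at its own signal, its lowest detected signal or the floor, whichever was highest. The estimate was -0.14 with normexp background and -0.31 with the GC trend removed, so this fold is not a lower bound. miR-669f-3p was higher by 1.15 ± 0.25 (adjusted p = 0.0147) and miR-669h-3p by 1.08 ± 0.26 (adjusted p = 0.0229). miR-466b-3p (0.75 ± 0.14, adjusted p = 0.00937), miR-467a-3p (0.72 ± 0.15, adjusted p = 0.0133) and miR-467d-3p (0.60 ± 0.10, adjusted p = 0.00705) were also higher. Of the 4 marrow arrays, miR-466g was detected on 3, miR-466b-3p on 2 and miR-669h-3p and miR-467d-3p on 1, and the floor stood in for the marrow signal of miR-466g on 1, of miR-669h-3p on 2 and of miR-467d-3p on 3, so their differences are not exact. With the scaling quartile taken over all 1247 miRNAs, which shifts the median of all tested miRNAs to -0.62, the estimates of miR-466b-3p, miR-467a-3p, miR-467d-3p, miR-467e-5p and miR-669f-3p turned to -0.67, -0.70, -0.45, -0.16 and -0.27, and 0 of 21 members were called higher and 6 lower (28.6%), when 45.7% of all miRNAs were called lower.

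The long CA-repeat members had higher estimates in hypothalamus of 1.08 to 1.21, of which that of miR-669f-3p alone passed. miR-466f-3p had 1.21 ± 0.42 (adjusted p = 0.0645). miR-466h-3p was 1.78 above marrow at 0 Gy and 2.14 at 8 Gy with PBS, and -0.17 and 1.02 with amifostine. Both amifostine pairs thus lay below both PBS pairs, and the unirradiated amifostine pair was lowest and negative. Without that pair 16 of 21 members and 60.8% of all miRNAs passed. Both PBS pairs lay on 1 slide, but the amifostine arrays of marrow and of hypothalamus were on different slides. In the amifostine pairs the tissue therefore cannot be told apart from the slide. With slide as covariate, which leaves the tissue estimate to the PBS pairs, 12 of 21 members (57.1%) and 43.8% of all miRNAs passed. Without the 8 Gy PBS pair 3 of 22 members and 44.3% of all passed, and without the 8 Gy amifostine pair 4 of 21 and 49.6%. miR-669n was not called (0.05 ± 0.24, adjusted p = 0.887). miR-669b-5p was detected on 3 of 4 hypothalamus arrays and on no bone marrow array, which was too few for a test. The change with dose was not called as different between the tissues for any of 21 members or 530 miRNAs (0%) by limma, with 0 members and 29 miRNAs at an unadjusted p under 0.05. Among members detected on all 8 arrays the 2 highest and 2 lowest estimates were 0.88 ± 1.05 for miR-466q, 0.84 ± 1.05 for miR-669c-3p, -0.33 ± 0.42 for miR-466i-5p and -0.63 ± 0.38 for miR-669n, with adjusted p-values of 0.904 to 0.977.

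**Figure D5:**
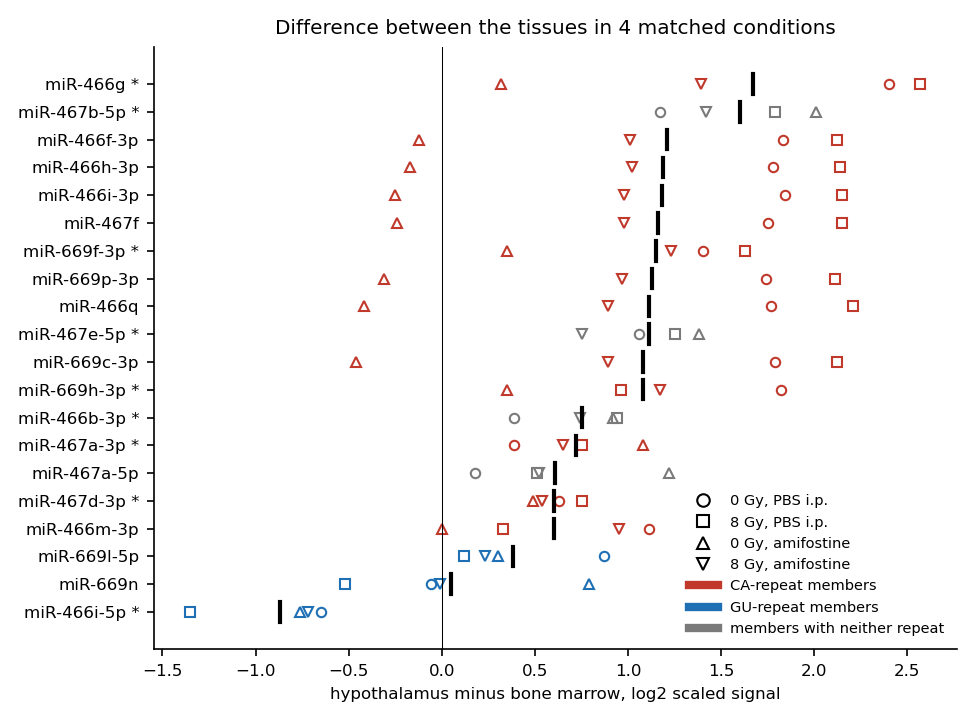
Hypothalamus minus bone marrow in log2 scaled signal for the tested members other than miR-297a-3p, which was at the floor, in each of the 4 matched conditions (symbols), with a bar at the estimate and an asterisk for an adjusted p of at most 0.05. The symbols of miR-467b-5p lie between 1.17 and 2.01 and those of miR-466i-5p between -1.35 and -0.65, while most long CA-repeat members spread from below 0 to above 2.

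Both arms of a hairpin could be followed in bone marrow for miR-466i and miR-467a, and their estimates parted in the first. miR-466i-5p reads a GU repeat and miR-466i-3p a CA repeat, the hairpin being one on chromosome 13. For 8 minus 0 Gy the 5p strand had 0.32 and the 3p strand -0.46, and in the PBS arms alone 0.35 and -0.95. For amifostine they had -0.15 and 1.09, and for CBLB502 0.37 and 1.05. Between the tissues the 5p strand had -0.87 ± 0.16 (adjusted p = 0.00910) and the 3p strand 1.18 ± 0.45 (adjusted p = 0.0797). The strands of miR-467a, from the cluster on chromosome 2, ran alongside each other: -0.11 (5p) and -0.17 (3p) for irradiation, -0.54 and -0.83 for CBLB502, and 0.61 and 0.72 between the tissues. The difference between strands was not tested.

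The members were also sorted by name in place of sequence, and which sorting divides them better was not tested. For irradiation of bone marrow the medians were -0.43 for miR-466, -0.21 for miR-467 and -0.48 for miR-669 members. For CBLB502 they were 1.07, -0.68 and 0.76, and the miR-467 members ran from -0.92 for miR-467b-5p to 1.10 for miR-467f, whose probed stretch is a long CA repeat. The CA-repeat members ran from -0.83 to 1.20 in the same comparison. By strand the CBLB502 medians were 1.05 for 3p, -0.54 for 5p and 1.08 for members without a strand name. The 8 members with a CA run of 9 or more had medians of -0.47 for irradiation, 1.07 for CBLB502 and 1.16 between the tissues, a run length chosen with these values known.

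Repeat-bearing miRNAs outside the families gave a partial parallel. The GU-repeat miRNAs miR-574-5p, miR-1187 and miR-3082-5p had a median of 0.51 for 8 minus 0 Gy in bone marrow (0.48 to 0.62), none called, and a median of 0.06 for CBLB502. miR-574-3p, a CA-repeat miRNA by its probes too, had -0.27 ± 0.21 for irradiation (adjusted p = 0.364), 1.01 ± 0.28 for CBLB502 (adjusted p = 0.0512) and 1.20 ± 0.33 between the tissues (adjusted p = 0.0339). miR-362-3p, which holds ACACAC in its mature sequence but only a CA run of 5 in the probed stretch, fell with irradiation (-0.69 ± 0.13, adjusted p = 0.0243) and with CBLB502 (-0.63 ± 0.16, adjusted p = 0.0445). Between the tissues 5 GU-repeat miRNAs had a median of -1.20, with 2 called higher and 3 lower.

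Probe composition moved with several of the comparisons. The median GC content of the probes was 40.5% for the members and 51.6% for the other miRNAs. Across all tested miRNAs the Spearman correlation of the difference with probe GC content was 0.43 for CBLB502, 0.38 for amifostine, 0.47 for nilestriol, -0.05 for irradiation of bone marrow and -0.24 between the tissues. Among the members alone it was 0.19, -0.14, -0.09, 0.29 and 0.11 (15 members in marrow and 21 between the tissues). miRNAs of an array are not independent replicates, and these are descriptions. Among probes detected on at least 5 of the 10 marrow arrays, which left 2 or more probes for 13 of the 15 members and 1 probe for miR-467a-5p and miR-467b-5p, the probes of 1 member gave differences within 0.10 of each other for irradiation, except for miR-466g (0.34), and within 0.58 for CBLB502. Over all probes the spread was wider: those of miR-466f-3p ran from -0.48 to 0.09 for irradiation and from 0.22 to 1.18 for CBLB502, those of miR-466g from -0.51 to -0.02 and from 0.17 to 1.35, and those of miR-467a-5p from -0.96 to -0.08 for CBLB502.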

How the data were processed

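Per the file headers, the 14 single-colour arrays were quantified by Feature Extraction 10.7.1.1 of Agilent. The deposited files hold intensity per spot, from which the scanner software had subtracted background, and a deposited table of log2 values by the authors, whose scaling is not stated and which served as an alternative. Outlier spots were dropped, spots were averaged per probe and probes per miRNA. Each array was divided by the 75th percentile of those miRNAs that every array of a fit detected (296 in bone marrow, 471 in hypothalamus, 277 for both). Signals were raised to a floor before log2, set at the 5th percentile of the detected signals of an array (the median array's value). miRNAs detected on at least 50% of the arrays were tested with limma 3.58.1 in R 4.3.3, two-sided, with Benjamini-Hochberg adjustment over all of them at 0.05, with pretreatment, dose, route or condition as block; the 3 drugs shared a fit. The procedure was tested on simulated data.

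Named members were those called in any test, the 2 highest and 2 lowest differences per test among members detected on all its arrays, those detected on all 14 arrays or in 1 tissue only, and both strands of a hairpin. Comparators were other miRNAs whose RefSeq mature sequence holds the same repeats. The members, classes and lists were chosen with earlier results of these data known. The array number limits the precision, and arrays without replicate pools give p-values that measure residual spread alone.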

Additional observations from a re-analysis of the deposited data

Results flagged for a closer look

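Among 15 named members checked for an array or pair far from the others, 1 was marked, where chance marks about 1 in 20 groups. miR-466i-5p was lower in hypothalamus than in bone marrow by a log2 difference of -1.35 in the 8 Gy PBS pair, and by -0.76 to -0.65 in the other 3 pairs.

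For 8 against 0 Gy in hypothalamus, miR-466q moved by -1.01 with PBS and 1.14 with amifostine, miR-669c-3p by -1.05 and 1.18, and miR-669l-5p by -0.69 and 0.15. Each value is 1 pair of arrays, and the difference between the arms was not tested.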

How the results depend on the processing

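Counts of called members and medians were recomputed under each alternative. Of these values 265 moved by less than the spread allowed and 51 moved further. Of the values of named members 653 kept direction and side of the threshold and 120 lost their call. Another 24 gained one, 51 turned sign and 6 were counted as moved. The causes were not tested.

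For irradiation of bone marrow the count of 0 became 1 with an added offset and no floor (15.4% of all miRNAs called) and 5 with the GC trend removed (20.2%). The count was 0 to 4 with an arm left out (0.264% to 24.3% of all). In the PBS arms the count became 7 with normexp background (9.12% of all miRNAs called). It became 10 with the offset (26.5%), with the GC trend removed (27.9%), or with miRNAs always at the floor left out (29.5%, chosen after seeing the data). The median of -0.80 became -0.24 with normexp, -0.61 unscaled or with the offset and -0.51 with scanner totals. It became -0.90 with the authors' table and -0.95 for miRNAs detected on all arrays. For amifostine the count became 8 with the offset, when 2.96% of all miRNAs were called. The median of 1.06 became 0.13 with normexp and 0.08 for miRNAs detected on at least 1 array. For CBLB502 the count of 6 became 0 unscaled or against PBS i.p. alone, with 0% of all miRNAs called. It became 1 with scanner totals (3.23% of all) or the authors' table (1.08%), and 2 for miRNAs detected on at least 1 array (3.15%). It became 10 with floor miRNAs left out (17.7%), and 12 with the GC trend removed (15.1%) or within the slide (29.8%). With an array of another group left out it was 0 to 13 (0% to 24.2%). The median became 0.35 with normexp and 0.32 for miRNAs detected on at least 1 array. For nilestriol the count became 1 with scaling over all miRNAs, when 19.4% of all were called. The median ranged from 0.05 to 0.73 with an array left out. Between the tissues the count of 9 became 4 with the authors' table (72.1% of all miRNAs called) and 17 with floor miRNAs left out (65.1%). It was 3 to 16 with a pair left out (44.3% to 60.8%). The median of 1.08 became -0.12 with normexp, -0.27 with scaling over all miRNAs, 0.15 with quantile normalization and 1.53 unscaled. It became 0.54 with the offset, 0.22 with the authors' table and -0.31 with the GC trend removed. The median for dose by tissue became 1.03 with the authors' table and 0.74 for miRNAs detected on all arrays.

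Single members turned sign as follows. With amifostine in marrow miR-466i-5p became 0.03 with the authors' table and 0.02 without the 0 Gy PBS i.p. array, and in hypothalamus 0.0084 unscaled and 0.10 with scanner totals. With a pair of hypothalamus arrays left out, the amifostine difference was -1.36 to 0.70 for miR-466q, -1.36 to 0.73 for miR-466i-3p and -0.65 to 0.70 for miR-466i-5p. The irradiation difference there was -1.01 to 1.16 for miR-466q, -1.05 to 1.20 for miR-669c-3p and -0.69 to 0.17 for miR-669l-5p. With CBLB502 miR-467a-3p became 1.20 and miR-467b-5p 1.12 with scanner totals, and miR-466i-5p ranged from -0.03, lacking the irradiated CBLB502 array, to 0.78. With nilestriol miR-669n became -0.08 with normexp, -0.21 with scaling over all, -0.0035 with quantile normalization, -0.01 with the authors' table, and -0.34 to 0.40 with an array left out, and miR-669f-3p -0.10, -0.11 and -0.0025 with normexp, scaling over all and scanner totals, and -0.25 to 0.52 with an array left out. Between the tissues normexp gave -0.16 for miR-466b-3p and miR-669n, -0.12 for miR-467a-3p, -0.19 for miR-467d-3p, -0.14 for miR-467e-5p and -0.13 for miR-669h-3p. Scaling over all gave -0.67, -0.70, -0.45, -0.16 and -0.27 for the 5 members named above, -1.37 for miR-669n and -0.21 for miR-466f-3p. Quantile normalization gave -0.61 for miR-466b-3p, -0.67 for miR-467a-3p, -0.12 for miR-669f-3p and -1.02 for miR-669n. The authors' table gave -1.08 for miR-467a-3p, -0.06 for miR-467d-3p, -0.04 for miR-669f-3p and -1.10 for miR-669n. Removing the GC trend gave -0.52 for miR-466b-3p, -0.70 for miR-467a-3p, -0.56 for miR-467d-3p, -0.31 for miR-467e-5p, -0.20 for miR-669f-3p, -0.26 for miR-669h-3p and -1.11 for miR-669n. miR-669n was also -0.03 with the offset, -0.29 with slide as covariate and -0.25 to 0.25 with a pair left out. For dose by tissue miR-466i-5p became 0.18 with quantile normalization and 0.20 with the authors' table.

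Of all calls between the tissues 71.7% were higher, and 54.6% with normexp, 35.6% with scaling over all, 48.9% with quantile normalization and 85.9% unscaled. For CBLB502 the share was 44.4%, and 15.7% with scaling over all and 12.8% with quantile normalization. Under each of these alternatives 1 member was called higher and 4 lower. Of all miRNAs 3.5% were called higher and 18.9% lower with scaling over all, and 1.62% and 11.1% with quantile normalization. For irradiation of bone marrow it was 72.3%, and 61.8% and 45.5%. The fits held arms, doses, routes or conditions as blocks. Arrays were thus matched by these labels. They could not be paired by animal or pool, because the labels give no replicate numbers.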
